A study of Homo sapiens with 12 samples.

Results

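Heat shock proteins and DNAJ chaperones were followed at the RNA level in KG1a cells, an established line of human leukaemia cells of the acute myeloid kind, which carries the stem cell antigen CD34. Members were the genes whose symbols belong to the HSPA, HSPB, HSPH, HSPD, HSPE, HSP90A, DNAJA, DNAJB and DNAJC families, together with HSF1, HSF2 and BAG3. The ER proteins HSPA5 and DNAJB9, pseudogenes, antisense names and genes with all 12 values under 10 were left out. Of 28395 genes in the table, 75 matched by symbol and 66 remained: 2 were the named ER genes, 3 were pseudogenes and 4 were under 10 in every library. The 12 libraries of messenger RNA formed 4 groups of 3: hypoxic bright, hypoxic dim, normoxic bright and normoxic dim. Bright and dim stand for high and low surface levels of CD38 and of CLL-1 among cells that carry CD34, and hypoxic cells were kept in 3% oxygen for a time not given in the sources used here. All groups were of the 1 line, labelled WT and grown in RPMI medium with bovine serum, and no group carried an engineered allele or received a drug. The labels do not say that replicates were separate cultures, so p-values measure the spread between these libraries, which may be technical.

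Chaperones of the HSP70 family bind exposed stretches of unfolded proteins in a cycle driven by ATP. DNAJ proteins (J-proteins) deliver clients and trigger the ATPase, nucleotide exchange factors such as HSPH1 and BAG3 release the client, and HSP90, HSP60 with HSP10, and the small heat shock proteins fold or hold it at other steps. The transcription factor HSF1 switches on the inducible members by binding heat shock elements, arrays of nGAAn repeats, when unfolded proteins build up. Leukaemia cells are known to lean on HSP70 and HSP90 to keep client kinases and transcription factors folded.

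The values are read counts that the authors scaled to a common library size and rounded, here called normalized values. They summed to between 31828256 and 32560463 per library, with an estimated depth of 25200000 to 39500000 counted reads. The sort was visible in CD38, which averaged 142 ± 18.1 in hypoxic bright and 15.7 ± 8.33 in hypoxic dim libraries, and 69.7 ± 11.2 in normoxic bright and 5.0 ± 2.65 in normoxic dim libraries (SD, n = 3 each). CLEC12A, the gene of CLL-1, stayed at 9 to 40 in every library with overlapping groups, so the second sort marker was not separated at the RNA level. Marker genes of other tissues stood high in some libraries. The sum of 22 skeletal muscle genes was 3577 in normoxic bright library 1 and 1261 to 5119 in normoxic dim libraries, against 363 to 675 in the other 8 libraries. DES alone had 1757 in normoxic bright library 1 and 2512 in normoxic dim library 1. Not every gene followed the sum. In hypoxic dim library 1 MB had 35 and TNNI2 20, against 6 and 9 in normoxic bright library 1, and CASQ1 never exceeded 7. The sum of 15 airway epithelium genes was 17096 and 5224 in hypoxic dim libraries 2 and 3, and 3171 and 6544 in normoxic bright libraries 1 and 2. It was 25 to 57 in normoxic dim libraries. In hypoxic dim library 2, MUC5B, KRT8, KRT18 and CEACAM6 were highest. SCGB1A1 and SCGB3A1 were at 0 in every library, so the list's name does not identify the source. The sum of 6 neutrophil granule genes reached 15138 in hypoxic dim library 1 against 44 to 50 in hypoxic bright libraries. In that dim library PRTN3 had 7043, MPO 4618, AZU1 1936 and ELANE 1526. CTSG had 15 there, against 27 to 32 in hypoxic bright libraries, and LTF had 0. In each of these lists at most 3 genes were at 0 throughout a group. In RNA from sorted populations, fewer cells of a type and less RNA per cell cannot be told apart.

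Chaperone RNA was abundant in every library: the members held between 1.19% and 1.47% of all normalized values. The cytosolic HSP70 gene HSPA8, which is expressed without stress, and the HSP90 genes HSP90AA1 and HSP90AB1 made up 66.8% of the members' sum. Per kilobase of listed gene length, the mean level over 12 libraries was 51161 for HSPA8, 26532 for HSP90AB1, 21145 for HSP90AA1, 9143 for the mitochondrial chaperonin HSPD1 and 5395 for the J-protein DNAJA1, in that order. On the same scale the stress-inducible HSPA1A had 21.3 and HSPA12A, a distant HSP70 relative, 2.08. By mean normalized value, 37 members were at or above 1000 and 10 were below 50. Of the 66 members, 64 passed the filter on low values, and DNAJB13 and HSPB3, which never exceeded 17 and 24, did not.

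The promoters of these genes are printed because the heat shock element in them is the sequence through which HSF1 acts on the family. RefSeq promoters (GRCh38.p14, 250 bases before to 50 after the start) were found for 60 members. A full element of 3 repeats, searched as GAANNTTCNNGAA and as its reverse complement TTCNNGAANNTTC, was present in 7 of these 60 genes (11.7%) and in 166 of 27305 genes in all (0.608%). The shorter forms GAANNTTC and TTCNNGAA, which lie inside the full element, were present in 35.0% of the members and 16.2% of all genes. Capitals mark the full elements in these stretches, read 5′ to 3′ on the gene's strand.
HSPA6, chr1:161524436-161524508, plus strand: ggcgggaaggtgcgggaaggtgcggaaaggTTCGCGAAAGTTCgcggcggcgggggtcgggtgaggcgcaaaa
HSPD1, chr2:197500038-197500090, minus strand: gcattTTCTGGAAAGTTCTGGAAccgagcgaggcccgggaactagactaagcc
HSP90AB1, chr6:44247748-44247873, plus strand: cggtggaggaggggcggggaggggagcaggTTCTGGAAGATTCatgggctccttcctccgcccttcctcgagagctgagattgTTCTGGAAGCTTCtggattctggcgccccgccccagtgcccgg
HSPA8, chr11:123062149-123062386, minus strand: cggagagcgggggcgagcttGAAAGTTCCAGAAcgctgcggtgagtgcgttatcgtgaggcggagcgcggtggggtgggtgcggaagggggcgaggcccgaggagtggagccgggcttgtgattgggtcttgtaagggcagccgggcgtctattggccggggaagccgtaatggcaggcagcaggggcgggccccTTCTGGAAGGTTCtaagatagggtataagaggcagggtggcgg
HSP90AA1, chr14:102087090-102087162, minus strand: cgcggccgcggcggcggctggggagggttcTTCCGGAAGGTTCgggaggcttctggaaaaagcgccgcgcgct
HSPA6, HSPD1 and HSP90AB1 are shown as genes that fell in hypoxic bright against hypoxic dim cells, and HSPA8 and HSP90AA1 as genes with the same element that did not pass. HSPA6 held 1 element, 61 bases before the start. HSP90AB1 held 2 elements, 99 and 152 bases before the start, and HSPA8 held 2, 42 and 217 bases before it. In HSPD1 the matches overlap and share repeats. DNAJB6 and DNAJA1 held the other full elements, that of DNAJA1 after the start.

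The clearest difference lay between the sorted populations in hypoxia: most chaperone genes that passed were lower in bright cells. In hypoxic bright against hypoxic dim cells, 19 of 64 tested members fell, 3 rose and 42 did not pass (limma, Benjamini-Hochberg adjusted p under 0.05 over 15057 genes). The lower ones included the inducible HSP70 genes HSPA1A, HSPA1B and HSPA6, the mitochondrial chaperones HSPE1, HSPD1 and HSPA9, the cytosolic HSP90AB1 and the cytosolic J-proteins DNAJA1 and DNAJB1. The higher ones were DNAJC6, DNAJC13 and DNAJC16. Over all genes tested 26.5% passed, against 34.4% of the members, so the share that passed was not far from the background. The split by direction was 29.7% lower and 4.69% higher among members, against 13.6% lower and 12.9% higher among all genes. The median log2 fold change was -0.15 over the members, also with HSPA12A at its bound, and -0.03 over all genes. With another scaling of the libraries, to their upper quartile, 24 members fell and 1 rose, and over all genes 2659 fell and 1252 rose against 2053 and 1941 in the main scaling. The 22 calls became 9 without hypoxic bright library 1 (16.4% of all genes passed) and 7 without hypoxic bright library 2 (15.2%). Without the library of each group highest in airway, muscle or granule genes they became 1, 6 and 9, beside 4.47%, 8.07% and 13.7% of all genes. In these groups the airway sum was 27 to 1034 in hypoxic bright and 888 to 17096 in hypoxic dim libraries, the granule sum 44 to 50 and 69 to 15138, and the muscle sum 363 to 536 and 565 to 675.

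**Figure D1:**
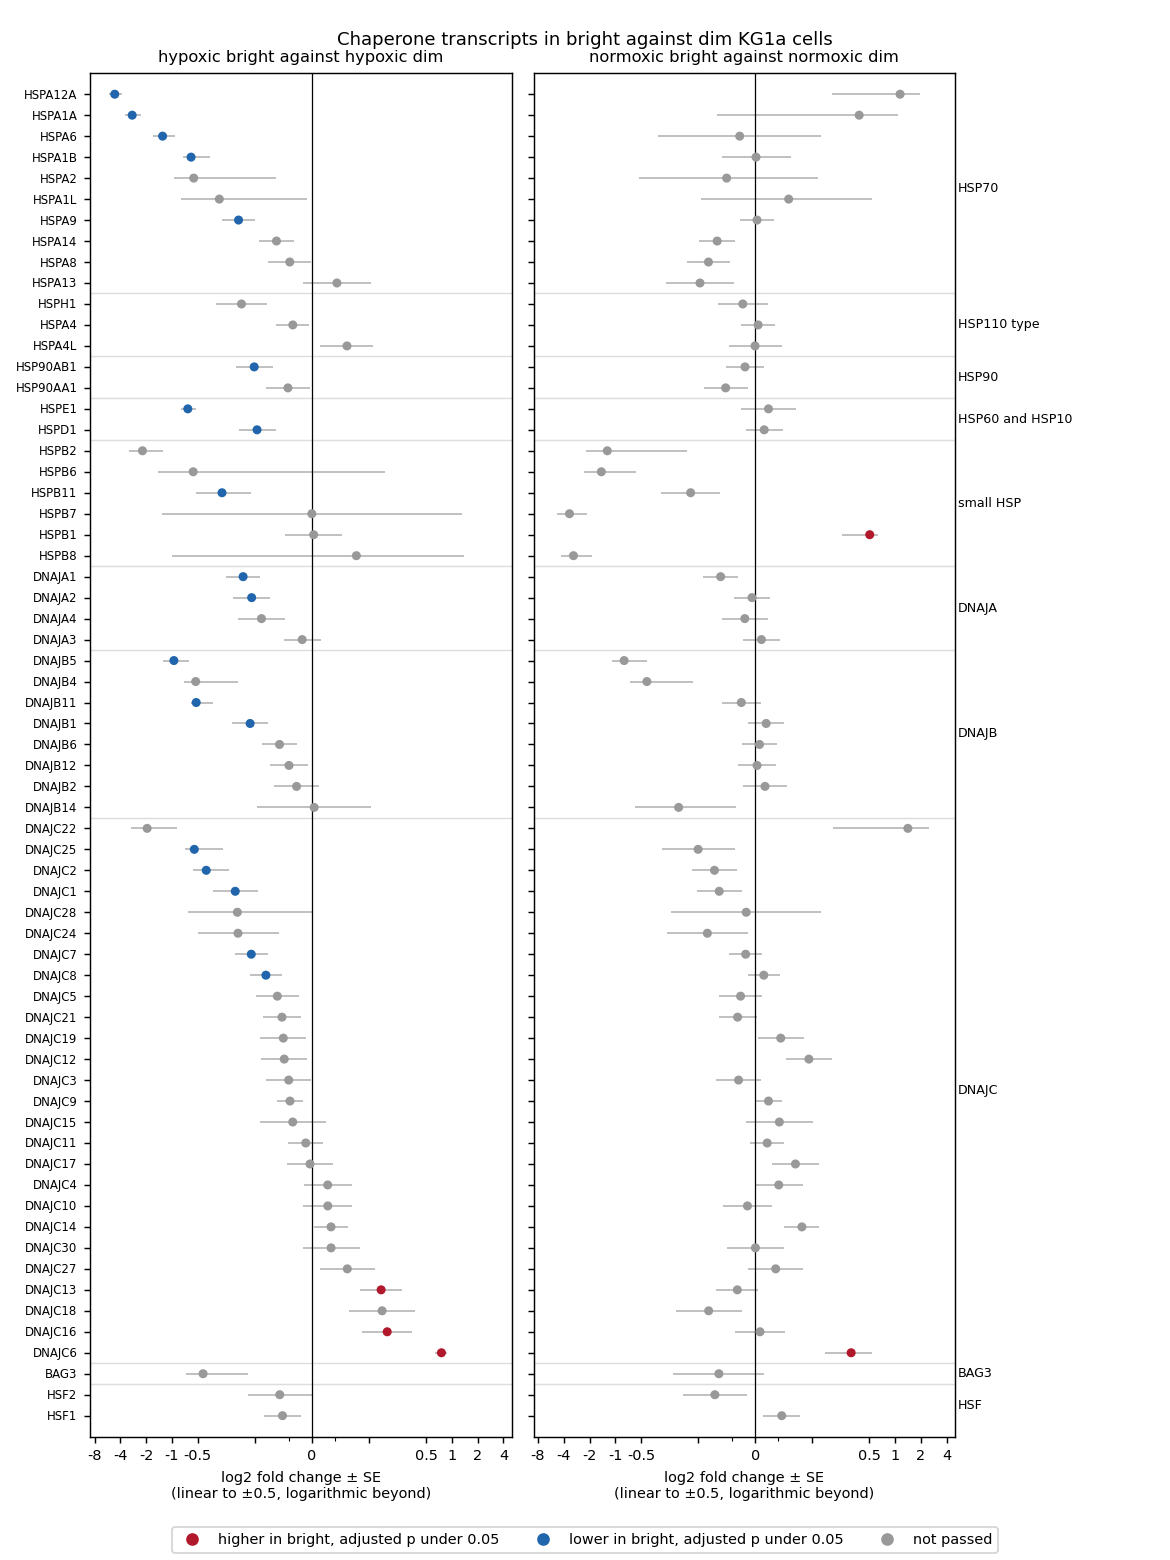
Log2 fold change with its standard error for the 64 tested members, grouped by family, in hypoxic bright against hypoxic dim cells on the left and normoxic bright against normoxic dim cells on the right. The axis is linear to 0.5 and logarithmic beyond. Colour marks an adjusted p under 0.05. On the left 19 members lie below 0 in blue and 3 above it in red, on the right 2 are red and none is blue.

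In the HSP70 family 5 of 10 members fell in hypoxic bright cells, beside 13.6% of all genes lower. HSPA9 (mortalin), the HSP70 of the mitochondrial matrix, had 8205, 8744 and 9393 in hypoxic bright libraries, against 12051, 10496 and 10386 in hypoxic dim libraries. Every bright library was below every dim one, and the log2 fold change was -0.32 ± 0.07 (limma, SE, adjusted p = 0.00734). HSPA1A and HSPA1B, the classic inducible HSP70 genes, encode nearly the same protein and lie on chromosome 6 (hg38, chr6:31815514-31817942 and chr6:31827735-31830254), 9792 bases apart. Their reads can be split between them in counting, and the listed span of HSPA1L on the other strand covers HSPA1A. HSPA1B had 292, 239 and 299 in hypoxic bright libraries and 379, 367 and 521 in hypoxic dim libraries, a log2 fold change of -0.60 ± 0.15 (limma, adjusted p = 0.0118). HSPA1A had 16, 10 and 11 in hypoxic bright libraries and 263, 77 and 45 in hypoxic dim libraries, a log2 fold change of -2.91 ± 0.62 (limma, adjusted p = 0.00502). For both genes the groups did not overlap, and hypoxic dim library 1, which gave the 263, was also the one with 15138 in granule genes. Without the libraries highest in granule genes HSPA1A was at -2.07 ± 0.67 on the log2 scale (limma, adjusted p = 0.0656), and without those highest in airway genes at -2.95 ± 0.72 (limma, adjusted p = 0.0566), so its call was lost in both settings. Over all its alternatives the adjusted p ran between 0.00107 and 0.0656. Summing takes away a split between these genes, but does not restore reads left uncounted or assigned to HSPA1L. Summed over both genes, the values were 308, 249 and 310 in hypoxic bright libraries, against 642, 444 and 566 in hypoxic dim libraries. The sum was thus lower in all 3 bright libraries than in any dim one.

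HSPA6, an HSP70 gene of humans that is nearly silent without stress and whose promoter is printed above, was named after its values were seen. It had 58, 33 and 64 in hypoxic bright libraries and 71, 129 and 200 in hypoxic dim libraries, a log2 fold change of -1.28 ± 0.36 (limma, adjusted p = 0.0186). The gap between the groups was narrow, 64 against 71, and the dim libraries spread widely. HSPA8, the main constitutive HSP70, had 108490, 110639 and 122626 in hypoxic bright libraries and 123838, 116912 and 124296 in hypoxic dim libraries. These ranges overlapped and the difference did not pass (log2 -0.10 ± 0.10, limma, adjusted p = 0.478). HSPA2, HSPA13, HSPA14 and HSPA1L did not pass either.

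HSPA12A, a distant HSP70 relative, was measured at very low counts. It was listed at 0 in all 3 hypoxic bright libraries, against 82, 26 and 6 in hypoxic dim libraries. In normoxia it had 15, 19 and 7 in bright and 5, 7 and 4 in dim libraries. Against a floor of 3 counts per library, its mean of 38.0 in hypoxic dim cells made it at least 11.3-fold lower in hypoxic bright cells, and its mean of 13.7 in normoxic bright cells made it at least 4.06-fold lower there. Without hypoxic dim library 1 the mean in hypoxic dim cells was 16 and the first bound became at least 4.75-fold lower in hypoxic bright cells. The fitted log2 value of -4.65 (limma, adjusted p = 0.00157) depends on the pseudocount and is no bound. Hypoxic dim library 1, with 82, was again the library highest in granule genes, and library 3 of that group had 6. The fitted value was -3.78 (limma, adjusted p = 0.0208) without the libraries highest in granule genes and -4.59 (limma, adjusted p = 0.0647) without those highest in airway genes, so the call was kept in the first setting and lost in the second. Over its alternatives the adjusted p ran between 0.000288 and 0.0647.

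**Figure D2:**
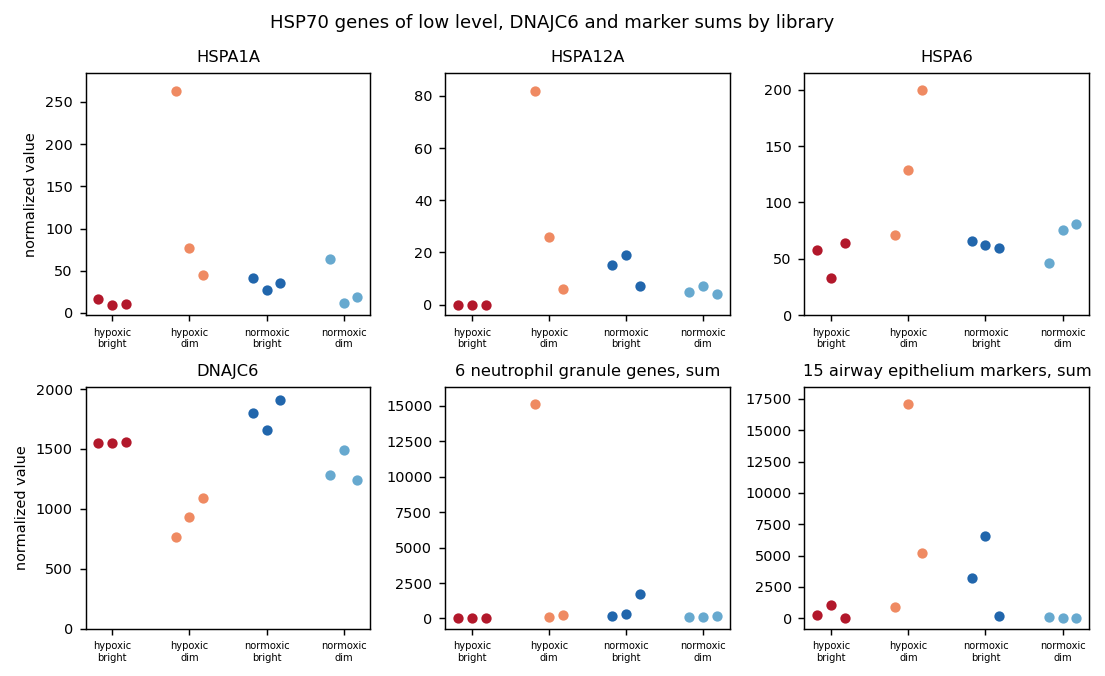
Normalized value of HSPA1A, HSPA12A, HSPA6 and DNAJC6 and the summed values of 6 neutrophil granule genes and 15 airway epithelium markers, 1 point per library, in the 4 groups. HSPA1A (263) and HSPA12A (82) peak in hypoxic dim library 1, where the granule sum is 15138, while HSPA6 peaks in hypoxic dim library 3 (200) and DNAJC6 is lowest in the 3 hypoxic dim libraries.

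Both genes of the mitochondrial chaperonin also fell. HSPE1 (HSP10) is the lid of the HSPD1 (HSP60) chamber, and the genes lie head to head on chromosome 2, where their listed spans overlap by 278 bases. HSPE1 had 2269, 2181 and 2396 in hypoxic bright libraries and 3375, 3553 and 3833 in hypoxic dim libraries. It was 1.57-fold lower in hypoxic bright cells with well separated groups (log2 -0.65 ± 0.12, limma, adjusted p = 0.00243). HSPD1 had 20855, 20664 and 22546 in hypoxic bright libraries and 25039, 23636 and 27041 in hypoxic dim libraries, 1.18-fold lower (log2 -0.24 ± 0.08, limma, adjusted p = 0.0434). The groups of HSPD1 did not overlap either, but its call was lost in 12 of 25 alternatives and that of HSPE1 in 2. The sources used here do not give the strand of counting. Reads from the overlap therefore cannot be assigned with certainty, and HSPE1 is also covered by a readthrough locus.

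Of the cytosolic HSP90 genes, the constitutive HSP90AB1 had 64370, 66162 and 74314 in hypoxic bright libraries, against 86824, 79619 and 77380 in hypoxic dim libraries. It was 1.19-fold lower without overlap (log2 -0.25 ± 0.08, limma, adjusted p = 0.0364), a call lost in 12 of 25 alternatives. The inducible HSP90AA1 had 77423, 78600 and 85190 in hypoxic bright libraries, against 78198, 82969 and 99322 in hypoxic dim libraries. These overlapped, and the log2 difference of -0.10 ± 0.10 did not pass (limma, adjusted p = 0.445). That the 2 genes differed from each other was not tested.

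None of the 3 HSP110-type genes, which act as nucleotide exchange factors for HSP70, passed. HSPH1 (HSP110) had 4886, 4919 and 5477 in hypoxic bright libraries, against 6003, 5497 and 7572 in hypoxic dim libraries. Its groups just failed to meet, 5477 against 5497, and its log2 difference was -0.31 ± 0.11 (limma, adjusted p = 0.0533). BAG3, an exchange factor that links HSP70 to selective autophagy, had 270, 310 and 308 in hypoxic bright libraries, against 548, 378 and 336 in hypoxic dim libraries. It too lay lower in all 3 bright libraries without passing (log2 -0.48 ± 0.20, limma, adjusted p = 0.0934).

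The heat shock factors themselves did not pass. HSF1 had 5241, 5527 and 5967 in hypoxic bright libraries, against 6490, 6292 and 5530 in hypoxic dim libraries (log2 -0.13 ± 0.08, limma, adjusted p = 0.259). HSF2, a developmental relative that pairs with HSF1, had 1037, 906 and 963 in hypoxic bright libraries, against 954, 982 and 1294 in hypoxic dim libraries (log2 -0.14 ± 0.14, limma, adjusted p = 0.485). Both factors had overlapping groups and passed in none of the 5 comparisons.

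**Figure D3:**
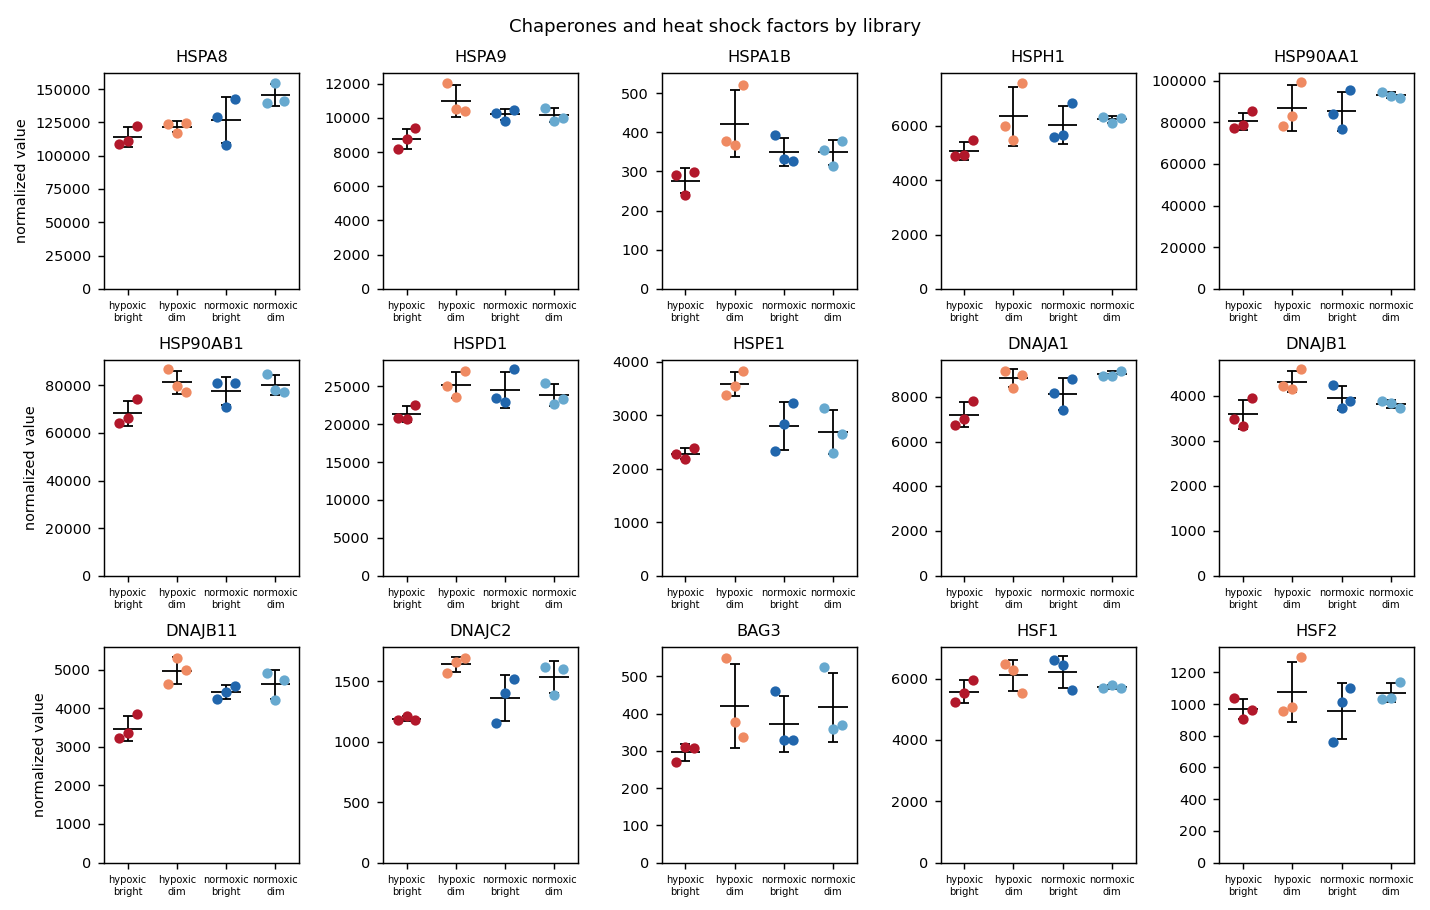
Normalized value of 15 members in every library, 1 point per library, with the group mean and its SD (n = 3), in hypoxic bright, hypoxic dim, normoxic bright and normoxic dim cells. HSPE1, DNAJB11, DNAJC2, HSPA9 and DNAJA1 are lower in the 3 hypoxic bright libraries than in the 3 hypoxic dim ones, whereas HSPA8, HSP90AA1, HSF1 and HSF2 overlap between these groups.

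Among J-proteins, 2 of 4 DNAJA, 3 of 8 tested DNAJB and 5 of 26 DNAJC genes fell in hypoxic bright cells, and 3 DNAJC genes rose. Over all genes 13.6% were lower and 12.9% higher, and the DNAJC counts were not far from these shares. DNAJA1, a farnesylated cytosolic partner of HSP70, had 6739, 7022 and 7816 in hypoxic bright libraries, against 9144, 8412 and 8994 in hypoxic dim libraries (log2 -0.30 ± 0.08, limma, adjusted p = 0.0117). DNAJB1, the major inducible HSP40, had 3475, 3328 and 3954 in hypoxic bright libraries, against 4219, 4145 and 4588 in hypoxic dim libraries (log2 -0.27 ± 0.08, limma, adjusted p = 0.0221). Neither gene's groups overlapped. DNAJB11 (ERdj3), the soluble J-protein of the ER lumen that feeds clients to HSPA5, had 3218, 3355 and 3844 in hypoxic bright libraries and 4622, 5314 and 4983 in hypoxic dim libraries. It was 1.43-fold lower in hypoxic bright cells (log2 -0.52 ± 0.09, limma, adjusted p = 0.00113), and the call held in 23 of 25 alternatives. DNAJC2 (MPP11), which works with HSPA14 on nascent chains at the ribosome, had 1181, 1213 and 1178 in hypoxic bright libraries and 1569, 1664 and 1692 in hypoxic dim libraries. It was 1.38-fold lower with little spread inside the groups (log2 -0.46 ± 0.10, limma, adjusted p = 0.00516). Its partner HSPA14 did not pass, at log2 -0.15 ± 0.08 (limma, adjusted p = 0.156).

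The remaining lower members were smaller in effect or level, and those outside the naming rule were chosen after their values were seen. DNAJC1, a J-protein of the ER membrane, and DNAJC25, whose locus is shared with a readthrough transcript, had log2 fold changes of -0.34 ± 0.10 and -0.55 ± 0.16 (limma, adjusted p = 0.0230 for each). DNAJA2 and DNAJC7, which bind cytosolic HSP70, and DNAJC8, a splicing-associated J-protein, lay between -0.27 and -0.20 on the log2 scale. DNAJB5 had 39, 43 and 46 in hypoxic bright libraries, against 120, 68 and 70 in hypoxic dim libraries (log2 -0.95 ± 0.31, limma, adjusted p = 0.0394). HSPB11, which bears a small heat shock protein name but is known as the intraflagellar transport subunit IFT25, had a log2 fold change of -0.39 ± 0.13 (limma, adjusted p = 0.0378). The calls of DNAJC8, DNAJB5 and HSPB11 were lost in 17, 13 and 11 of 25 alternatives.

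The 42 members that did not pass in hypoxic bright against hypoxic dim cells had fitted values below 0 in 30 cases and above 0 in 12, and 31 lay within 0.3 of 0 on the log2 scale. Their values ran from -2.20 for HSPB2 to 0.31 for DNAJC18, and the examples that follow were chosen after their values were seen. Among abundant J-proteins, DNAJC9, a histone chaperone, had 5662, 5650 and 6013 in hypoxic bright libraries, against 5923, 6399 and 6193 in hypoxic dim libraries (log2 -0.10 ± 0.06, limma, adjusted p = 0.244). DNAJA3 (TID1) and DNAJC11, which work in mitochondria, had log2 differences of -0.04 ± 0.08 and -0.03 ± 0.08 (limma, adjusted p = 0.734 and 0.823). These mitochondrial J-proteins thus gave smaller fitted differences than HSPE1, HSPD1 and HSPA9, a contrast between genes that was not tested. In the ER, DNAJC10 (ERdj5), which reduces disulphides, and DNAJC3 (P58IPK) had log2 differences of 0.07 ± 0.11 and -0.10 ± 0.10 (limma, adjusted p = 0.665 and 0.476). HSPA4 and HSPA4L, of the HSP110 type, had -0.08 ± 0.07 and 0.15 ± 0.12 (limma, adjusted p = 0.421 and 0.349). DNAJB4 had 262, 246 and 240 in hypoxic bright libraries and 305, 294 and 518 in hypoxic dim libraries, apart but not passed (log2 -0.53 ± 0.20, limma, adjusted p = 0.0703).

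Among the 3 higher members, DNAJC6 and DNAJC13 are known for work in membrane traffic. DNAJC6 (auxilin 1), which recruits HSPA8 to strip clathrin from coated vesicles, had 1547, 1549 and 1557 in hypoxic bright libraries and 766, 929 and 1087 in hypoxic dim libraries. It was 1.69-fold higher in hypoxic bright cells (log2 0.76 ± 0.12, limma, adjusted p = 0.000742), and its 3 bright libraries were nearly equal. The call held in 24 of 25 alternatives, and DNAJC6 was the 1 member called without the libraries highest in airway genes. DNAJC13 (RME-8), a J-protein of endosomes, had 2460, 2466 and 2257 in hypoxic bright libraries and 2051, 1801 and 1972 in hypoxic dim libraries (log2 0.30 ± 0.09, limma, adjusted p = 0.0271). DNAJC16, an ER membrane J-protein, had 1029, 986 and 1030 in hypoxic bright libraries and 850, 692 and 894 in hypoxic dim libraries (log2 0.33 ± 0.11, limma, adjusted p = 0.0384). Both were higher without overlap, and their calls were lost in 9 and 13 of 25 alternatives.

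Heat shock elements were read against these calls as a description. The full element was present in 4 of the 18 lower members with a promoter entry (DNAJA1, HSP90AB1, HSPA6 and HSPD1), in 3 of the 37 members that did not pass (DNAJB6, HSP90AA1 and HSPA8) and in none of the 3 higher ones. The shorter form was present in 8 of 18, 11 of 37 and 1 of 3. The 3 most abundant members all held a full element: HSPA8 and HSP90AA1 did not pass, and HSP90AB1 fell. No match in this window says only that these letters are not in it.

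In normoxia bright and dim cells differed in few chaperones: 2 of 64 members rose in bright cells, none fell and 62 did not pass. Over all genes 6.66% passed, 2.88% higher and 3.79% lower. HSPB1 (HSP27), an abundant ATP-independent holdase, had 1560, 1418 and 1420 in normoxic bright libraries, against 1117, 958 and 1030 in normoxic dim libraries. All bright libraries were above all dim ones, 1.42-fold on the fitted scale (log2 0.50 ± 0.13, limma, adjusted p = 0.0284). DNAJC6 had 1799, 1654 and 1905 in normoxic bright libraries, against 1278, 1495 and 1239 in normoxic dim libraries, 1.34-fold higher (log2 0.42 ± 0.12, limma, adjusted p = 0.0474). DNAJC6 was thus higher in bright cells at both oxygen levels, and its difference between these contrasts did not pass (log2 0.34 ± 0.16, limma, adjusted p = 0.249). HSPB1 in hypoxia had 1194, 1173 and 1399 in bright libraries, against 1516, 1240 and 1025 in dim libraries, which overlapped widely (log2 0.01 ± 0.13, limma, adjusted p = 0.971). The difference of HSPB1 between the oxygen levels did not pass either (log2 -0.50 ± 0.18, limma, adjusted p = 0.131).

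Neither normoxic call was firm. That of HSPB1 was lost without normoxic bright library 1, 2 or 3 and without normoxic dim library 2 or 3, with log2 values of 0.45 to 0.58 over its alternatives. That of DNAJC6 was lost in 18 of 25 alternatives, with log2 values of 0.32 to 0.50. Without the libraries highest in airway or granule genes no member passed, and without those highest in muscle genes 1 did, HSPB8, which fell.

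Low oxygen moved few chaperone transcripts past the threshold. In hypoxic dim against normoxic dim cells 0 of 64 members passed with limma, beside 0.232% of all genes (0.199% higher and 0.0332% lower). At an unadjusted p under 0.05 there were 12 members, 6 higher and 6 lower, beside 17.4% of all genes. In hypoxic bright against normoxic bright cells 1 member passed, HSPA12A, which fell, beside 0.837% of all genes (0.478% higher and 0.359% lower). Its call was lost in 19 of 24 alternatives, among them each that left out a single bright library of either oxygen level. At an unadjusted p under 0.05 there were 14 members, 1 higher and 13 lower, beside 15.5% of all genes. The split of all genes by direction at the unadjusted threshold was not counted. Of the 64 fitted values 51 were negative in bright cells and 26 in dim cells, against about as many negative as positive over all genes (50.2% and 49.4% negative). The members' median log2 fold change under hypoxia was -0.12 in bright cells and 0.02 in dim cells. With upper-quartile scaling the median of all genes moved by -0.10 in bright cells and the members' median became -0.22. Rescaling shifts all genes of a library alike, so the distance of -0.12 between the medians could hardly change and was not tested by it.

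HSPA8 had 123838, 116912 and 124296 in hypoxic dim libraries, against 139851, 154753 and 141112 in normoxic dim libraries. The groups did not overlap, yet the log2 difference of -0.25 ± 0.10 did not pass (limma, adjusted p = 0.197). HSPE1 had 3375, 3553 and 3833 in hypoxic dim libraries, against 3128, 2297 and 2645 in normoxic dim libraries (log2 0.42 ± 0.12, limma, adjusted p = 0.138). DNAJC6 had 766, 929 and 1087 in hypoxic dim libraries, against 1278, 1495 and 1239 in normoxic dim libraries, a difference without overlap that did not pass (log2 -0.54 ± 0.12, limma, adjusted p = 0.0851). Each of these 2 genes was also apart between its groups. In bright cells, HSPA9 had 8205, 8744 and 9393 in hypoxic libraries, against 10290, 9824 and 10488 in normoxic libraries (log2 -0.22 ± 0.07, limma, adjusted p = 0.184). DNAJB11 had 3218, 3355 and 3844 in hypoxic bright libraries, against 4241, 4427 and 4589 in normoxic bright libraries, again apart and not passed (log2 -0.35 ± 0.09, limma, adjusted p = 0.0731). The values of each of these genes were apart, and none of the differences passed over 15057 genes. These examples were chosen after their values were seen, and how many of all genes had groups apart was not counted.

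Whether hypoxia acted differently in bright and dim cells was tested as the difference of its effects. One member of 64 passed, HSPA12A (log2 -5.78 ± 1.14, limma, adjusted p = 0.0242), beside 2.36% of all genes, 1.1% higher and 1.26% lower. Because it was at 0 in every hypoxic bright library, that fitted size has no scale of its own: it was -9.14 with a pseudocount of 0.1 and -2.51 with one of 10, where it no longer passed. Its call was also lost without hypoxic bright library 1 or 2, hypoxic dim library 2, normoxic bright library 2 or normoxic dim library 2 or 3, with log2 values between -5.97 and -5.51. HSPE1 came next to the threshold at log2 -0.71 ± 0.17 (limma, adjusted p = 0.0501). HSPA1A and DNAJB11 followed at -3.36 ± 0.88 and -0.46 ± 0.12 (limma, adjusted p = 0.0599 and 0.0607). The members' median was -0.16, against -0.00 over all genes, whose median upper-quartile scaling moved by -0.12. This comparison uses the same 12 libraries as those above, so its values are not further evidence for them.

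The small heat shock proteins of muscle differed widely between libraries of 1 group. HSPB7, known from heart and skeletal muscle, had 1, 5 and 1 in hypoxic bright, 0, 3 and 5 in hypoxic dim, 123, 1 and 2 in normoxic bright and 248, 43 and 84 in normoxic dim libraries. HSPB8, the partner of BAG3, had 2, 5 and 2 in hypoxic bright, 2, 5 and 1 in hypoxic dim, 89, 1 and 1 in normoxic bright and 139, 29 and 51 in normoxic dim libraries. HSPB6 (HSP20) had 2, 10 and 12 in hypoxic bright, 13, 10 and 8 in hypoxic dim, 78, 6 and 6 in normoxic bright and 80, 18 and 51 in normoxic dim libraries. All 3 genes were higher in normoxic bright library 1 and the 3 normoxic dim libraries than in the other 8, where none exceeded 13. Summed with HSPB2 and HSPB3, chosen after their values were seen, they came to 5, 22 and 16 in hypoxic bright, 23, 25 and 20 in hypoxic dim, 334, 11 and 10 in normoxic bright and 520, 104 and 200 in normoxic dim libraries. The 22 skeletal muscle markers summed to 363, 536 and 487 in hypoxic bright, 565, 675 and 577 in hypoxic dim, 3577, 470 and 432 in normoxic bright and 5119, 1261 and 2026 in normoxic dim libraries. The same 4 libraries led both sums, and what part the muscle transcripts had in the values of these genes was not tested. None of HSPB2, HSPB6, HSPB7 and HSPB8 passed in any of the 5 comparisons.

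Without normoxic bright library 1, HSPB7 and HSPB8 did pass in both comparisons with normoxic dim cells, and HSPB6 in that of bright cells. In normoxic bright against normoxic dim cells their log2 values were then -5.32, -4.91 and -2.62 (limma, adjusted p = 0.00415, 0.00239 and 0.0467). In hypoxic dim against normoxic dim cells HSPB7 and HSPB8 kept log2 values of -5.08 and -4.19 (limma, adjusted p = 0.0218 and 0.0237). DNAJC22 was the last member whose replicates differed more than 4-fold within a group. It had 1, 1 and 1 in hypoxic bright, 1, 37 and 5 in hypoxic dim, 21, 20 and 3 in normoxic bright and 9, 4 and 1 in normoxic dim libraries. Its highest value, 37, stood in hypoxic dim library 2, the library with 17096 in airway genes, and any link was not tested.

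**Figure D4:**
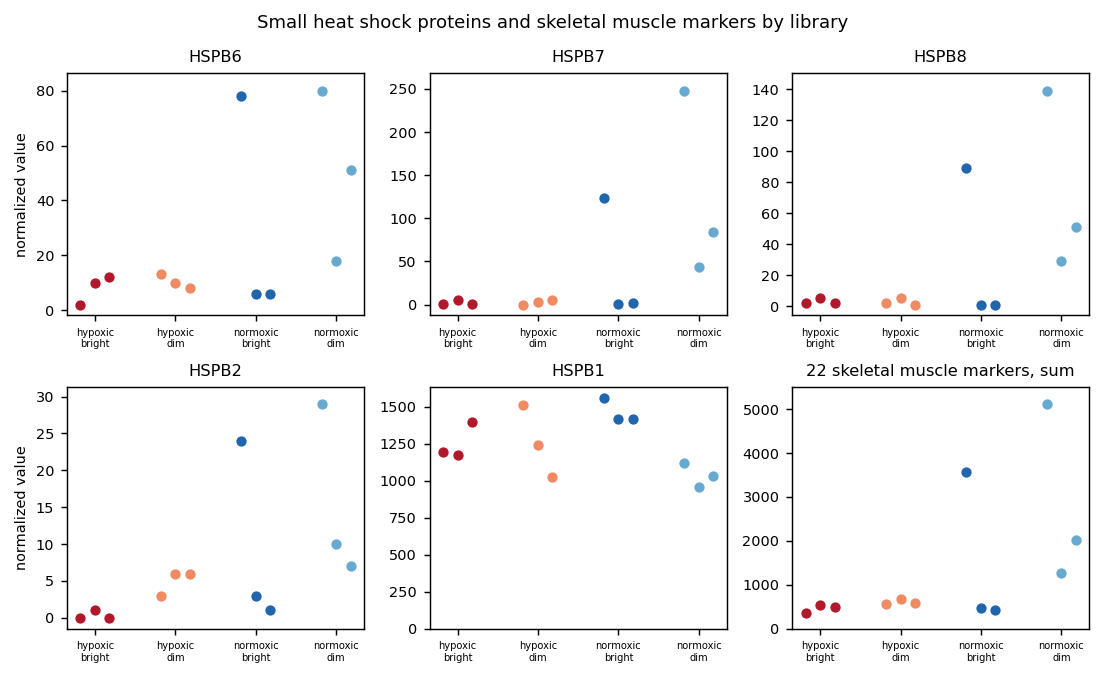
Normalized value of HSPB6, HSPB7, HSPB8, HSPB2 and HSPB1 and the summed value of 22 skeletal muscle markers, 1 point per library, in the 4 groups. HSPB6, HSPB7, HSPB8 and HSPB2 are high in normoxic bright library 1 and normoxic dim library 1, the libraries with muscle sums of 3577 and 5119.

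Other genes of the folding network were read from lists of co-chaperones, chaperonins and ER chaperones, 70 of whose 74 genes were tested. In hypoxic bright against hypoxic dim cells 26 fell, 2 rose and 42 did not pass, beside 13.6% of all genes lower and 12.9% higher. The 28 calls became 15 without hypoxic bright library 1, 13 without hypoxic bright library 2 and 16 without hypoxic dim library 2, beside 16.4%, 15.2% and 17.5% of all genes. They became 1, 8 and 10 without the libraries highest in airway, muscle and granule genes, beside 4.47%, 8.07% and 13.7% of all genes; these alternatives for the lists were added after seeing the data. The cytosolic chaperonin CCT and its delivery complex prefoldin had 10 of 14 genes lower and none higher, among them CCT6A (log2 -0.36 ± 0.07, limma, adjusted p = 0.00280) and PFDN2 (log2 -0.52 ± 0.09, limma, adjusted p = 0.00144). Those 10 became 3 without hypoxic bright library 1, 2 without hypoxic bright library 2, 3 without hypoxic dim library 2, and 0, 2 and 2 without the libraries highest in airway, muscle and granule genes. Of 14 HSP90 co-chaperones 5 fell: AHSA1, which stimulates the HSP90 ATPase, at -0.35 ± 0.08 on the log2 scale, and NUDC, SUGT1, STIP1 and CDC37. Of 14 exchange factors and partners of HSP70 2 fell, near the 13.6% of all genes: BAG2 and GRPEL1, the exchange factor of HSPA9. GRPEL1, HSPA9, HSPD1 and HSPE1 are all proteins of the mitochondrial matrix. Mitochondrial genes did not fall as a whole, since of 8 genes of mitochondrial protein quality 0 fell and 2 rose.

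Of 13 ER chaperones 6 fell, with SDF2L1, a partner of DNAJB11, at log2 -0.51 ± 0.08 and HSPA5 itself at -0.21 ± 0.07 (limma). Of 8 genes of mitochondrial protein quality none fell, and the ATPases CLPB and CLPX rose, by 0.60 ± 0.12 and 0.26 ± 0.07 on the log2 scale. Of 7 other HSF targets and family members 3 fell, among them SQSTM1 and HMOX1. In normoxia SQSTM1 was also lower in bright than in dim cells (log2 -0.55 ± 0.09, limma). Both comparisons of hypoxia with normoxia gave 0 of 70 with limma, and the difference of effects gave 1, PFDN2 at log2 -0.56 ± 0.13.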

How the data were processed

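RNA from 12 libraries of sorted KG1a cells was sequenced as read pairs. Per the submitters' processing notes, Trimmomatic 0.39 was used for trimming and STAR 2.4.2a for alignment on hg38. The sources used here do not give the counting tool, annotation or strand. Each deposited value is a score: a read count that the authors divided by a median-of-ratios size factor and rounded, as the values show, so no count test was used. The median ratio of a library to the gene-wise geometric mean was 1.003 to 1.004.

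The model for log2 of the value plus 1 came from limma 3.58.1, run in R 4.3.3 (mean trend, 4 group means, 8 residual degrees of freedom) on the 15057 genes with at least 10 in at least 3 libraries; 13338 were not tested. The adjusted p is Benjamini-Hochberg over all genes tested, 2-sided, in each of 5 comparisons. The fit was run on simulated data with known changes. Each value was drawn on its own, so shifts shared by many genes of a library were not covered. Named were 15 core members, in each comparison up to 5 called members per direction with a mean of at least 100, members called in the difference of effects, and 6 members whose replicates differed more than 4-fold after adding 10; others were chosen after their values were seen. The members and lists were chosen with earlier results of these data known. One gene of the lists is not reported here. Coordinates of genes are those of the deposited table in hg38. Those of the promoter stretches, and the starts they are measured from, are of RefSeq and can lie inside the listed gene spans. Replicate numbers were not used to pair the libraries in the main fit. Alternatives were another scaling, filters, pseudocounts, thresholds, a block and leaving out libraries; the 3 marker-based ones were added after seeing the data.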

Additional observations from a re-analysis of the deposited data

Results flagged for a closer look

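HSPA12A, the distant HSP70 relative, differed in its hypoxia effect between bright and dim cells by -5.78 on the log2 scale (bright minus dim, limma), the 1 member for which the test of that difference passed. It was listed at 0 in all 3 hypoxic bright libraries and at 82, 26 and 6 in hypoxic dim libraries, against 15, 19 and 7 in normoxic bright and 5, 7 and 4 in normoxic dim libraries. The library with 82 was the one with 15138 in neutrophil granule genes. Without the libraries highest in those genes the difference was -5.15 on the log2 scale (limma, adjusted p = 0.0696) and no longer passed. Because all 3 hypoxic bright values were 0, the fitted size depends on the pseudocount and is no measured fold. It was -9.14 with a pseudocount of 0.1 and -2.51 with one of 10. The call was lost in 13 of 23 alternatives, over which the adjusted p ran between 0.00361 and 0.347.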

How the results depend on the processing

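Over 25 alternatives the 26 calls gave 646 values: 417 stayed past the threshold, 229 lost it and 0 changed sign. HSPB1 in hypoxic bright against hypoxic dim cells, not called, was 0.01 on the log2 scale and turned to -0.0695 with upper-quartile scaling, -0.0724 without hypoxic bright library 3 and -0.132 without hypoxic dim library 3, in a range of -0.132 to 0.150 when 1 library was left out. For hypoxic bright against hypoxic dim cells the 22 members called became 1 in a test against a 1.5-fold change (1.56% of members beside 1.79% of all genes), 7 at an adjusted p under 0.01 (10.9% beside 12.6%), 1, 6 and 9 without the libraries highest in airway, muscle and granule genes (4.47%, 8.07% and 13.7% of all genes), and 7 to 23 when 1 library was left out. For hypoxic dim against normoxic dim cells, 0 members became up to 3 when 1 library was left out. The 3, without hypoxic dim library 3, were 4.69% of members beside 4.23% of all genes. For hypoxic bright against normoxic bright cells the 1 call became 0 without the trend, without a filter, at a mean of at least 50, with the compared groups alone, at a pseudocount of 10, against a 1.5-fold change, at an adjusted p under 0.01 and without the libraries highest in airway or muscle genes, and 0 to 2 when 1 library was left out. For normoxic bright against normoxic dim cells the 2 calls became 1 without a filter or at a pseudocount of 10, and 0 without the trend, against a 1.5-fold change and at an adjusted p under 0.01. Without the libraries highest in airway, muscle and granule genes they became 0, 1 and 0, and 0 to 3 when 1 library was left out. The 3, without normoxic bright library 1, were 4.69% of members beside 6.63% of all genes. For the difference of effects the 1 call became 3 with upper-quartile scaling (4.76% of members beside 1.9% of all genes), and 0 without the trend, at a mean of at least 50, at a pseudocount of 10, against a 1.5-fold change, at an adjusted p under 0.01 and in each marker-based setting, and 0 to 6 when 1 library was left out. The 6, without hypoxic dim library 3, were 9.38% of members beside 10.1% of all genes. HSPA12A, the 1 call in hypoxic bright against normoxic bright cells and in the difference of effects, had a mean of 14.25 over 12 libraries. The filter at a mean of at least 50 left it out, so it was not tested in that setting. Except there and where fewer libraries or a stricter threshold were used, the cause was not tested.

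With the replicate number as a block, hypoxic bright against hypoxic dim cells gave 24 members (25.1% of all genes), normoxic bright against normoxic dim cells 1 and the difference of effects 2. The labels do not say that equal numbers mark a pair. Same-numbered libraries correlated at -0.23 to 0.45 after removal of group means, above 0.1 in 7 of 18 pairs. The highest value was that of normoxic bright and normoxic dim library 1, and whether some libraries shared handling was not tested. Rounding to whole numbers and 3 libraries a group limit what can be told of members with values under 10.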
